A study of Mus musculus with 24 samples.

Results

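To see what the loss of Cpt2 changes in a liver that already lacks Tsc1, 4 libraries of DKO livers (Tsc1Cpt2 L-/-) were compared with 4 libraries of Tsc1 L-/- livers, 8 of the 24 libraries in the series. Genotypes were taken from the sample labels, and the members were all 35275 genes of the count table. Of these, 13641 passed the filter on low counts and were tested, and 21634 were not. Both groups lacked Tsc1 in hepatocytes through floxed alleles and Albumin-Cre, a Cre recombinase driven by the albumin promoter, and DKO mice also carried floxed Cpt2. All mice were C57BL/6 males of 8 to 10 weeks that had fasted for 24 h. RNA from whole liver was read as single 75-base reads, so cells that do not use the albumin promoter kept both genes, and fewer cells of a type cannot be told apart from less RNA per cell. The 4 control libraries, called wild type in the labels and described by the study as floxed littermates, and the 4 Cpt2 L-/- libraries shared the same fit. They supplied part of the estimate of the spread and the test of whether Cpt2 loss had a different effect without Tsc1. Nothing in the labels says that the samples of a group came from separate mice, so the p-values measure the spread between these samples.

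Cpt2 sits on the inner mitochondrial membrane and turns long-chain acylcarnitines back into acyl-CoAs, the step that lets long-chain fatty acids enter mitochondrial beta-oxidation. During a fast the liver takes up fatty acids from adipose tissue, oxidizes them, makes ketone bodies and glucose, and activates Pparα, a nuclear receptor that is bound by lipids and induces genes of fatty acid catabolism. Tsc1 is part of the complex that holds mTORC1 in check, and its loss keeps this driver of protein and lipid synthesis active when nutrients are scarce.

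Total counts were 14763846 to 17501550 in Tsc1 L-/- and 14868666 to 18007139 in DKO libraries. The first principal component of these 8 libraries held 53% of the variance and put the DKO libraries between 37.2 and 51.3 and the Tsc1 L-/- libraries between -66.6 and -36.5. Tsc1 L-/- replicate 3 stood apart from its group, and 5.70% of the genes tested were over 2-fold above or below the mean of the other 3 libraries on a log2(CPM + 0.5) scale. This share was 1.97% to 4.14% in the other Tsc1 L-/- libraries and 1.45% to 1.80% in DKO libraries. CPM are counts relative to the library size after scaling by the TMM method of edgeR. Replicate 3 was the highest of the group in Srebf1, a regulator of lipogenesis, at 338 CPM against 23.9 to 41.5. It was the lowest in Cyp4a14, a fatty acid hydroxylase, at 524 CPM against 4290 to 5890, and in Ehhadh, a peroxisomal enzyme, at 145 CPM against 724 to 1831. Some of the counts and folds that this library moves are given below with and without it.

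Tsc1 and Cpt2 themselves were looked at before other genes. Tsc1 (ENSMUSG00000026812, chr2:28641228-28691167 in GRCm38) was at 18.3, 29.2, 25.8 and 25.9 CPM in Tsc1 L-/- libraries and at 18.3, 15.8, 15.7 and 17.3 CPM in DKO libraries. Cpt2 (ENSMUSG00000028607, chr4:107903981-107923610) was at 150, 121, 120 and 175 CPM in Tsc1 L-/- and at 85.4, 105, 81.9 and 120 CPM in DKO libraries. The groups met at 18.3 CPM for Tsc1 and at 120 CPM for Cpt2, and the other DKO values lay below the Tsc1 L-/- values. The log2 fold change was -0.56 for Tsc1 (standard error, SE, 0.13, edgeR adjusted p = 0.00281) and -0.53 for Cpt2 (SE 0.14, edgeR adjusted p = 0.00819). The call for Cpt2 was lost when all 24 libraries of the series were fitted together (edgeR adjusted p = 0.24). Mean Cpt2 was 99.5 CPM in control, 92.3 CPM in Cpt2 L-/-, 142 CPM in Tsc1 L-/- and 98.1 CPM in DKO livers. The DKO mean was thus near the control mean, and Cpt2 L-/- was not called against control (log2 fold change -0.11, edgeR adjusted p = 0.605). Mean Tsc1 was 38.8, 48.1, 24.8 and 16.8 CPM in the same order. A gene total includes reads outside the floxed exons and reads from other cells, so it does not check the labels. Alb, the serum albumin gene that marks hepatocytes and whose promoter drives the Cre, was among the most abundant transcripts in all 8 libraries (11110 to 43930 CPM).

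Cpt2 loss changed the expression of 4392 genes in the Tsc1-deficient liver at an edgeR adjusted p under 0.05 (quasi-likelihood test, Benjamini-Hochberg adjustment), which is 32.2% of the genes tested. Of these, 2312 were higher (16.9%) and 2080 lower (15.2%) in DKO. The median log2 fold change over all genes was -0.000296. It was 0.71 among genes called higher and -0.87 among genes called lower. At least 2-fold changes were found in 681 genes that rose and 862 that fell, and at least 4-fold changes in 193 and 234. The 4 and 4 libraries did not overlap in 4168 genes (30.6%), and 3595 of them were also called by the test. Most genes named below were picked by a small adjusted p or with their values seen, so separate groups follow partly from that choice. Without Tsc1 L-/- replicate 3, 1985 genes were higher and 1765 lower, and 3542 of these calls were among the 4392. When FPKM were tested with limma in place of the counts, the balance moved to 2851 higher and 1471 lower, 66.0% of calls higher against 52.6% with the counts. In that test the median over all genes was 0.057 on the log2(FPKM + 1) scale. Of the called genes, 2224 of those higher and 1978 of those lower code for protein.

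**Figure D1:**
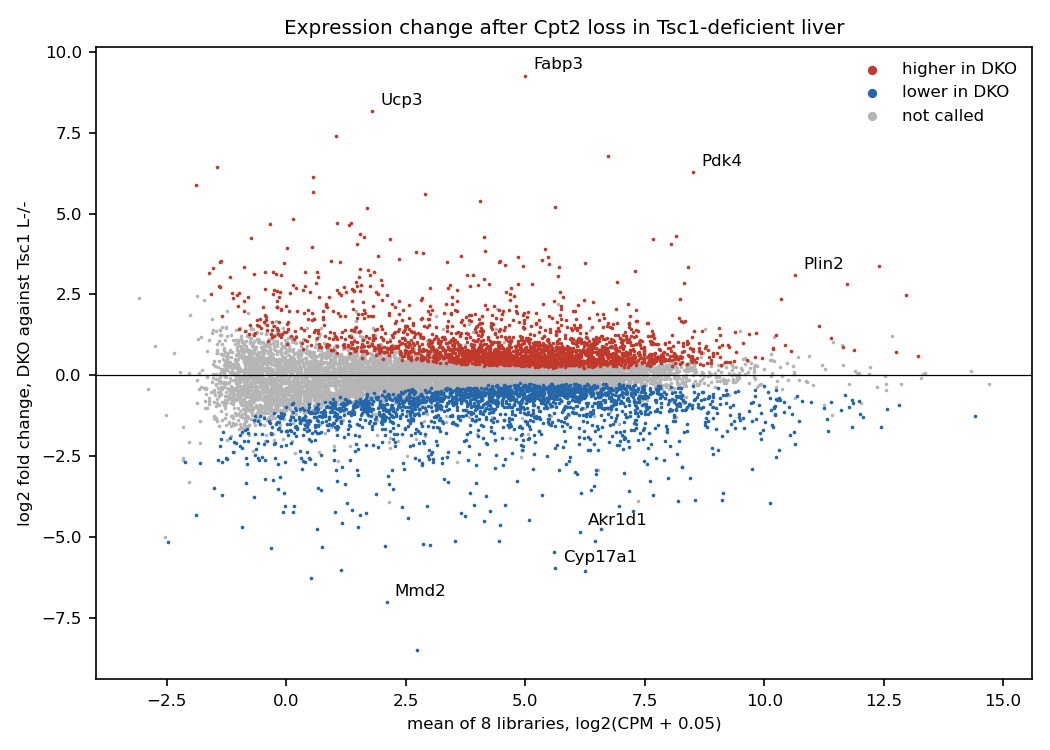
Log2 fold change between DKO and Tsc1 L-/- livers (y axis, log2 units) against the mean expression of the 8 libraries (x axis, log2 of CPM + 0.05) for the 13641 genes tested. Red points are the 2312 genes called higher, blue points the 2080 called lower, and grey points the genes that did not pass the test. Genes named on the plot are examples from the text, among them Fabp3 at a fitted 9.27 and Mmd2 at a fitted -7.01.

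Genes were ranked by fold change among those called, without overlap between the groups and at a mean of at least 1 CPM, leaving out 151 predicted or clone-named genes (74 higher and 77 lower). The 12 largest rises included genes of fatty acid handling that are usually low in liver. Fabp3, the fatty acid binding protein of heart and muscle, was at 0, 0, 0.322 and 0.0633 CPM in Tsc1 L-/- and at 34.6, 87.2, 17.2 and 117 CPM in DKO libraries. Ucp3, a mitochondrial carrier best known in muscle, had at most 1 read per Tsc1 L-/- library and was at 5.84, 7.78, 4.82 and 8.85 CPM in DKO libraries. Pdk4, the kinase that shuts pyruvate out of mitochondrial oxidation in fasting, was at 8.22, 8.78, 4.58 and 15.2 CPM in Tsc1 L-/- and at 282, 511, 691 and 1395 CPM in DKO libraries. The absence of overlap is part of how these genes were chosen, and the 4 DKO libraries themselves differed several-fold in Fabp3 and Pdk4. The fitted log2 fold change was 9.27 (SE 0.84, edgeR adjusted p = 4.01e-06) for Fabp3 and 6.29 (SE 0.54, edgeR adjusted p = 2.58e-06) for Pdk4. Without Tsc1 L-/- replicate 3, which held 5 reads of Fabp3, the fitted value was 11.11 (edgeR adjusted p = 2.03e-05). The Tsc1 L-/- mean of Fabp3 was under the floor of 3 counts per library, against which the rise was at least 330.5-fold, since fitted values from so few reads depend on the prior count. For Ucp3 the bound against this floor was at least 35.2-fold higher. Bounds of the same kind among the other large rises were at least 20.6-fold for Rbm24, which codes for an RNA-binding protein, at least 14.6-fold for Sprr1a, a small proline-rich protein induced on injury, and at least 14.4-fold for Aqp3, a channel for water and glycerol.

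The related glycerol channel Aqp7 was at 0.138 to 0.490 CPM in Tsc1 L-/- and at 9.51 to 17.0 CPM in DKO libraries (48.9-fold, edgeR adjusted p = 3.44e-08). Elovl7, a fatty acid elongase, went from 0.380 to 1.09 CPM up to 23.0 to 44.9 CPM (42.4-fold, edgeR adjusted p = 3.44e-08), and Gpnmb, a lysosomal glycoprotein, from 0.902 to 4.05 CPM up to 71.1 to 135 CPM (37.1-fold, edgeR adjusted p = 9.94e-07). The remaining genes among the 12 with the largest rise were Tubb2b (at least 31.8-fold, against the floor) and Tubb2a (19.9-fold), 2 closely related beta-tubulins between which reads could be split, and Shc2 (20.6-fold), a signaling adaptor.

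The 12 largest falls included hepatic enzymes of steroid, bile acid, retinoid and amino acid metabolism. Akr1d1, the steroid reductase of bile acid synthesis, was at 77.8, 191, 167 and 108 CPM in Tsc1 L-/- and at 8.73, 3.49, 3.83 and 2.98 CPM in DKO libraries. Sds, the serine dehydratase, was at 186, 286, 165 and 99.7 CPM in Tsc1 L-/- and at 7.57, 3.07, 10.8 and 5.91 CPM in DKO libraries. Serpina6, the corticosteroid-binding globulin, was at 175, 54.8, 344 and 107 CPM in Tsc1 L-/- and at 6.65, 4.23, 4.82 and 3.63 CPM in DKO libraries. The lowest Tsc1 L-/- library was 8.91-fold above the highest DKO library for Akr1d1, 9.25-fold for Sds and 8.25-fold for Serpina6. They were 28.6-fold lower for Akr1d1 (edgeR adjusted p = 1.49e-06), 27.1-fold lower for Sds (edgeR adjusted p = 0.000208) and 35.2-fold lower for Serpina6 (edgeR adjusted p = 4.19e-05). Cyp17a1, a steroid hydroxylase, was spread over 10.1 to 233 CPM in Tsc1 L-/- and fell to 0.265 to 2.77 CPM (62.8-fold, edgeR adjusted p = 0.000983). Bounds against the floor were at least 48.4-fold lower for Mmd2, at least 24.6-fold lower for Cyp26a1, which degrades retinoic acid, at least 18.2-fold lower for Fam47e and at least 15.9-fold lower for Derl3, part of the machinery that removes misfolded proteins from the ER. The hepcidin gene Hamp2 (34.8-fold) and Nr0b2, the bile acid-responsive repressor known as SHP (34.8-fold), were also in the list, with Thrsp and Cyp2c70. Without Tsc1 L-/- replicate 3 the log2 fold change went from -5.12 to -4.06 for Hamp2, from -5.12 to -4.35 for Nr0b2 and from -5.14 to -4.54 for Serpina6, and all 3 stayed lower (edgeR adjusted p = 0.000372, 0.00792 and 4.94e-05).

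Thrsp, a lipogenic gene, was at 7.54, 9.54, 565 and 15.1 CPM in Tsc1 L-/- and at 1.73, 3.49, 3.10 and 0.760 CPM in DKO libraries, and Cyp2c70, a bile acid hydroxylase, at 24.0, 26.6, 315 and 16.1 CPM and at 1.5, 2.59, 4.16 and 0.543 CPM. In both, the value far above the rest belonged to Tsc1 L-/- replicate 3. The log2 fold change of Thrsp was -6.04 with that library and -2.24 without it, and that of Cyp2c70 was -5.46 and -3.36, and both genes were lower without it as well (edgeR adjusted p = 0.000153 and 0.00048). The call for Thrsp was lost when only these 8 libraries were fitted (edgeR adjusted p = 0.058).

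**Figure D2:**
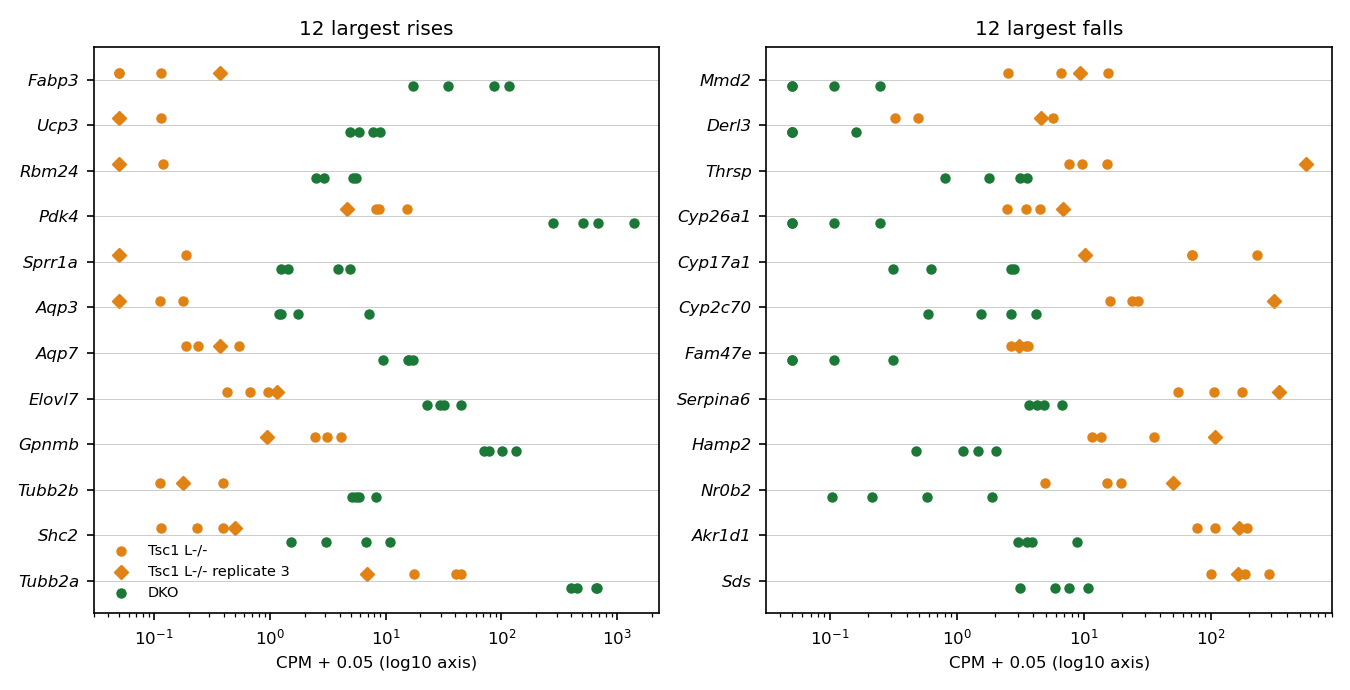
Expression of the 12 genes with the largest rise (left) and the 12 with the largest fall (right) in each library, on a log10 axis of CPM + 0.05. Each point is 1 library, orange for Tsc1 L-/- and green for DKO, with Tsc1 L-/- replicate 3 drawn as a diamond. Genes were chosen among those whose groups do not overlap, so the 4 DKO points lie on 1 side of the 4 Tsc1 L-/- points by that choice.

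The promoters of 4 of these genes are printed because 3 of the genes are among the largest rises and 1 is among the largest falls. Each runs from 250 bases before to 50 bases after the start of transcription in RefSeq on GRCm38.p6, 5′ to 3′ on the strand of the gene, and capitals mark any exact match to the motifs searched. Fabp3 lies at chr4:130308488-130308787 on the plus strand, Ucp3 at chr7:100472741-100473040 on the plus strand, Pdk4 at chr6:5496229-5496528 on the minus strand and Derl3 at chr10:75893148-75893447 on the plus strand.
Fabp3: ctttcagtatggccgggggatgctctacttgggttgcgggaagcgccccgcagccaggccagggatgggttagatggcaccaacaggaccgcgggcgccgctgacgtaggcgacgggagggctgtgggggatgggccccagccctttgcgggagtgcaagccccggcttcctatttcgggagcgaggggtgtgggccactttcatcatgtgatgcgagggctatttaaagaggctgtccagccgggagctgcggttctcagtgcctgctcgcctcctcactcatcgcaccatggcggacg
Ucp3: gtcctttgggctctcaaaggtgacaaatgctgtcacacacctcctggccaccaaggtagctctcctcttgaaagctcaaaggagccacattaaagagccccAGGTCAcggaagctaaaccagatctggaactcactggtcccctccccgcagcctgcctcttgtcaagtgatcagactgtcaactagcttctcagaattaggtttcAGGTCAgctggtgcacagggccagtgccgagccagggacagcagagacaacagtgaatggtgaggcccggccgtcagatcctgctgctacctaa
Pdk4: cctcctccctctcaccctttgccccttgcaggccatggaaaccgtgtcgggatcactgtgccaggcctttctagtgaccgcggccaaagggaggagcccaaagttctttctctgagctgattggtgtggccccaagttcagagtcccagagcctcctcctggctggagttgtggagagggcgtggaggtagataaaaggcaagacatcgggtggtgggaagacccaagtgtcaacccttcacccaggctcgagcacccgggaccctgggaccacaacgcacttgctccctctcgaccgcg
Derl3: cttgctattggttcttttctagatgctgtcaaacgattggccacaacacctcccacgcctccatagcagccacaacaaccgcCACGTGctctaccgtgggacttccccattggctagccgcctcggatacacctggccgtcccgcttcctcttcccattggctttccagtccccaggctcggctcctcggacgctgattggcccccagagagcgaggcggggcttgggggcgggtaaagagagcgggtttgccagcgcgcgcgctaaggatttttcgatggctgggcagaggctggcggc
The capitals in Ucp3 are 2 copies of AGGTCA, the half-site of many nuclear receptors, and those in Derl3 are CACGTG, the E-box. The windows of Fabp3, Pdk4, Rbm24 and Mmd2 held none of the motifs. Motifs were searched as exact letters on both strands. Among all 9916 tested genes with a promoter in the RefSeq table, CACGTG was present in 11.6%, against 15.2% of the 1733 genes higher in DKO and 10.1% of the 1542 genes lower. TGACGTCA, the cyclic AMP response element, was in 3.49% of all, 4.96% of higher and 2.08% of lower genes. TATAAA was in 9.26%, 8.08% and 12.7%. AGGTCA was in 15.6%, 16.7% and 17.6%, and it also counts the direct repeat of this half-site with a spacer of 1 base, the type bound by Pparα, which was in 4 promoters of all, 1 of a gene higher and 1 of a gene lower. The remaining motifs were TGACNNNGC, the core of the antioxidant element (17.0%, 18.8% and 15.3%), TTTCCCGC, bound by E2F (2.20%, 2.37% and 1.23%), and TGATGNAAT, bound by C/EBP and ATF factors (0.565%, 0.577% and 0.713%).

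Most genes of the lipid droplet, the organelle that stores triglyceride, rose. Of 26 tested, 18 were higher and 1 was lower, with a median log2 fold change of 1.11, beside 16.9% and 15.2% over all genes. These shares over all genes are the background for the counts of every list that follows. Plin2, the main droplet coat protein of hepatocytes, was at 432, 191, 267 and 459 CPM in Tsc1 L-/- and at 2066, 2760, 2858 and 3864 CPM in DKO libraries. Cidec, which fuses droplets into larger ones, was at 22.2, 49.0, 4.32 and 43.7 CPM in Tsc1 L-/- and at 408, 476, 539 and 565 CPM in DKO libraries. The lowest DKO library was 4.50-fold above the highest Tsc1 L-/- library for Plin2 and 8.33-fold for Cidec. Plin2 rose 8.56-fold (edgeR adjusted p = 3.76e-07) and Cidec 16.7-fold (edgeR adjusted p = 0.00015). Plin5, which ties droplets to mitochondria, rose 3.44-fold, Hilpda, an inhibitor of lipolysis, 5.19-fold, and Lipa, the lysosomal acid lipase, 2.56-fold. Lipe, the hormone-sensitive lipase, was the 1 member that fell (19.8, 18.4, 19.6 and 17.7 CPM against 12.2, 15.5, 13.7 and 16.6 CPM), and it did not pass the test without Tsc1 L-/- replicate 3 (edgeR adjusted p = 0.0824) or without any 1 of 7 other libraries.

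Fatty acid uptake and binding followed in part, with 8 of 15 tested genes higher and 2 lower (median log2 fold change 0.57). Cd36, the fatty acid translocase, was at 99.4, 70.6, 41.2 and 41.9 CPM in Tsc1 L-/- and at 197, 231, 181 and 409 CPM in DKO libraries (4.03-fold, edgeR adjusted p = 0.00565). Fabp4, known from adipocytes and macrophages, was at 6.32 to 8.54 CPM and at 33.9 to 66.9 CPM (5.67-fold, edgeR adjusted p = 3.29e-05). Neither gene overlapped between the groups, as was so for 30.6% of all genes tested. Slc27a5, a transporter that also activates bile acids, fell 2.31-fold (edgeR adjusted p = 0.000131), and Lpl, the lipoprotein lipase, fell 2.68-fold (edgeR adjusted p = 0.0106, and 0.0538 when only the 8 libraries were fitted).

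Many genes of mitochondrial beta-oxidation rose. Of 27 tested, 15 were higher and 2 were lower, and the median log2 fold change was 0.66. The 2 lower genes were Cpt2, whose DKO mean was near that of control livers, and Echs1, a hydratase of the cycle. The call for Echs1 was lost without Tsc1 L-/- replicate 3 (edgeR adjusted p = 0.0508). Slc25a20, the carrier that brings acylcarnitines to Cpt2, was at 112 to 163 CPM in Tsc1 L-/- and at 248 to 313 CPM in DKO libraries (2.0-fold, edgeR adjusted p = 1.87e-05). Acadl, the long-chain dehydrogenase of the first step of the cycle, was at 197 to 314 CPM and at 468 to 655 CPM (2.02-fold, edgeR adjusted p = 6.37e-05). The closest libraries were 1.52-fold apart for Slc25a20 and 1.49-fold for Acadl. Cpt1a, the liver form of the enzyme that makes acylcarnitines, was at 1189, 960, 686 and 1004 CPM in Tsc1 L-/- and at 1471, 1100, 1369 and 1405 CPM in DKO libraries, which overlap at 1 library (log2 fold change 0.48, SE 0.18, edgeR adjusted p = 0.052). DESeq2 and limma on log2(FPKM + 1) called Cpt1a higher (adjusted p = 0.038 and 0.00833). Cpt1b, the muscle form, rose 6.44-fold from a level of 0.127 to 0.580 CPM (edgeR adjusted p = 0.000528).

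Several genes of peroxisomal beta-oxidation rose by a larger fold. The list of peroxisomal oxidation and biogenesis had 18 of 40 tested genes higher and 7 lower, with a median log2 fold change of 0.25. The shares were 45.0% and 17.5%, beside 16.9% and 15.2% over all genes. Acaa1b, a thiolase of the last step, was at 1064, 680, 666 and 967 CPM in Tsc1 L-/- and at 4810, 6537, 5569 and 6806 CPM in DKO libraries. Pex11a, which drives the division of peroxisomes, was at 57.5, 65.2, 93.3 and 96.5 CPM in Tsc1 L-/- and at 447, 532, 521 and 747 CPM in DKO libraries. In both, the 2 groups were far apart, with 7.02-fold for Acaa1b (edgeR adjusted p = 1.79e-07) and 7.19-fold for Pex11a (edgeR adjusted p = 3.85e-08). Ehhadh, the bifunctional enzyme, rose 10.4-fold (edgeR adjusted p = 0.000475) from the uneven levels given above to 6139, 8502, 9024 and 16060 CPM. Among the 7 members that fell were Pecr, an enoyl-CoA reductase (3.93-fold), Abcd2, a transporter of very long-chain acyl-CoAs (2.17-fold), and Baat and Amacr, which act on bile acids, by 0.70 and 0.53 on the log2 scale.

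Acyl-CoA thioesterases, which release free fatty acids from CoA, had 8 of 12 tested genes higher and 1 lower (median log2 fold change 1.30). Acot2, the mitochondrial form, was at 55.5, 5.81, 2.96 and 19.1 CPM in Tsc1 L-/- and at 233, 382, 279 and 651 CPM in DKO libraries (18.5-fold, edgeR adjusted p = 0.00179). It belongs to a cluster of similar genes, so reads may be split among them. Acot9 rose 3.96-fold and Acot11 fell 2.64-fold (edgeR adjusted p = 5.04e-05 and 0.00099). Among 14 genes of omega-hydroxylation, which opens the far end of the fatty acid chain, 3 rose and 4 fell (21.4% and 28.6%, beside 16.9% and 15.2% over all genes), and without Tsc1 L-/- replicate 3 the counts were 6 and 3. Aldh3a2, the aldehyde dehydrogenase of the pathway, rose 5.16-fold (edgeR adjusted p = 1.17e-05), and Cyp4f14 fell 4.33-fold (edgeR adjusted p = 0.000574). Cyp4a14 was at 7477 to 12060 CPM in DKO libraries, above all Tsc1 L-/- libraries, and missed the threshold (log2 fold change 1.21, SE 0.46, edgeR adjusted p = 0.0559). It passed without Tsc1 L-/- replicate 3 (log2 fold change 0.84, edgeR adjusted p = 0.00519), with limma on log2(FPKM + 1) and with DESeq2 (adjusted p = 0.0203 and 0.0122). Of 9 ketogenesis genes, 2 were higher and 1 lower (22.2% and 11.1%, beside 16.9% and 15.2% over all genes), and none was lower without Tsc1 L-/- replicate 1. Slc16a1, the transporter that exports ketone bodies, rose 3.01-fold (edgeR adjusted p = 2.05e-06).

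Genes of fatty acid synthesis, elongation and desaturation were divided, with 9 of 25 higher and 8 lower, or 5 lower without Tsc1 L-/- replicate 3. Scd1, the main hepatic desaturase, was at 4054, 1271, 1663 and 1380 CPM in Tsc1 L-/- and at 84.5, 82.3, 362 and 14.6 CPM in DKO libraries. The lowest Tsc1 L-/- library was 3.51-fold above the highest DKO library, and the fold change was 15.4 (edgeR adjusted p = 0.00334). Elovl6, the elongase of palmitate, fell 3.0-fold (edgeR adjusted p = 0.0047) with 1 DKO library inside the Tsc1 L-/- range. Me1, the malic enzyme that supplies NADPH, rose 2.15-fold (edgeR adjusted p = 0.000109). For Srebf1 the 3 other Tsc1 L-/- libraries overlapped with the DKO libraries, which were at 24.5 to 36.2 CPM, and the test was not passed (edgeR adjusted p = 0.0563). Srebf1 was called lower by DESeq2 and in the fit of all 24 libraries (adjusted p = 0.0152 and 0.0237), and the adjusted p was 0.597 without Tsc1 L-/- replicate 3.

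Cholesterol genes were mostly not called, with 2 of 30 higher and 6 lower (6.67% and 20%, beside 16.9% and 15.2% over all genes, median log2 fold change -0.37), and 1 higher without any 1 of 5 libraries, Tsc1 L-/- replicates 1, 2 and 3 and DKO replicates 3 and 4. Insig2, a brake on the SREBP pathway, rose 2.73-fold (edgeR adjusted p = 0.0024), and Abca1, which exports cholesterol to lipoproteins, fell 1.94-fold (edgeR adjusted p = 0.000713). Genes of bile acid synthesis and transport were mostly lower, with 16 of 24 lower and 1 higher and a median log2 fold change of -0.96. Cyp7a1, the rate-limiting enzyme of bile acid synthesis, was at 214, 706, 102 and 136 CPM in Tsc1 L-/- and at 13.2, 22.5, 18.9 and 8.68 CPM in DKO libraries. Abcb11, the pump that moves bile acids into the canaliculus, was at 393, 166, 574 and 275 CPM in Tsc1 L-/- and at 38.7, 36.6, 42.2 and 30.1 CPM in DKO libraries. The closest libraries were 4.54-fold apart for Cyp7a1 and 3.92-fold for Abcb11. The falls were 18.3-fold for Cyp7a1 (edgeR adjusted p = 0.00062), 9.54-fold for Abcb11 (edgeR adjusted p = 4.61e-06) and 2.86-fold for Slco1b2, an uptake transporter of the sinusoidal membrane (edgeR adjusted p = 9.59e-06). Abcc3, an export pump of the same membrane, was the member that rose (1.84-fold, edgeR adjusted p = 0.000193).

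Among 22 apolipoprotein and VLDL genes, 3 rose and 10 fell (13.64% and 45.45%, beside 16.9% and 15.2% over all genes). Apoa4 was at 1718, 4231, 517 and 3314 CPM in Tsc1 L-/- and at 14280, 13080, 14160 and 12770 CPM in DKO libraries (5.55-fold, edgeR adjusted p = 0.00483), so that the DKO libraries were close to one another where the Tsc1 L-/- libraries were not. Mttp, which loads lipid onto apolipoprotein B, rose 1.73-fold (edgeR adjusted p = 0.00062). Apoa1 was among the genes without a call (log2 fold change 0.07, SE 0.20, edgeR adjusted p = 0.814).

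Of 32 genes of gluconeogenesis and glucose handling, 14 were lower and 5 higher (43.8% and 15.6%, beside 15.2% and 16.9% over all genes, median log2 fold change -0.55). G6pc, which releases free glucose, was at 381, 406, 604 and 506 CPM in Tsc1 L-/- and at 96.3, 64.8, 214 and 93.9 CPM in DKO libraries. Fbp1, the fructose bisphosphatase of the same pathway, was at 1200, 901, 1244 and 1253 CPM in Tsc1 L-/- and at 407, 248, 443 and 389 CPM in DKO libraries. The groups were separate in both, as was so for 30.6% of all genes tested. G6pc was 4.05-fold and Fbp1 3.09-fold lower (edgeR adjusted p = 0.000188 and 3.9e-06). Pck1, which commits oxaloacetate to glucose, fell 1.80-fold (edgeR adjusted p = 0.000753), and Ppp1r3c, a scaffold for glycogen synthesis, 24.9-fold (edgeR adjusted p = 0.000446). Pck2, the mitochondrial form of the same carboxykinase, rose 3.66-fold and Gpd2, the mitochondrial glycerol phosphate dehydrogenase, 3.15-fold (edgeR adjusted p = 0.000296 and 1.11e-05). Beside Pdk4, the 12 genes of pyruvate entry held 3 more that rose, Dlat, Mpc1 and Pdp1, and 1 that fell, Pdk2, while 2 fell without Tsc1 L-/- replicate 1, and 2 rose and none fell in the fit of all 24 libraries.

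Genes of amino acid catabolism were mostly lower, with 31 of 40 lower and none higher (median log2 fold change -0.82). Hal, the histidine ammonia-lyase, was at 1045, 819, 251 and 410 CPM in Tsc1 L-/- and at 85.4, 35.8, 82.8 and 72.7 CPM in DKO libraries. The groups did not overlap, as was so for 30.6% of all genes tested. Hal fell 9.13-fold (edgeR adjusted p = 0.000579), Prodh, the proline dehydrogenase, 3.47-fold, and Kynu, of tryptophan breakdown, 2.92-fold. The count of lower genes was 29 to 31 when single libraries were left out and 27 in the fit of all 24 libraries.

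In the urea cycle list 9 of 15 genes were lower and none was higher (median log2 fold change -0.97). Gls2, the liver glutaminase, was at 560, 420, 536 and 308 CPM in Tsc1 L-/- and at 49.2, 40.4, 63.5 and 48.8 CPM in DKO libraries (9.04-fold lower, edgeR adjusted p = 1.43e-06). Ass1, the argininosuccinate synthase, fell 3.04-fold and Otc, the ornithine transcarbamylase, 2.09-fold (edgeR adjusted p = 0.00022 and 3.76e-05). Of 18 genes of the methionine cycle and transsulfuration, 11 were lower and 4 higher. Cbs and Cth, the 2 transsulfuration enzymes, fell 4.05-fold and 6.16-fold, and Gnmt, the glycine methyltransferase, 3.48-fold (edgeR adjusted p = 1.29e-06, 9.57e-05 and 4.53e-05). Gclc, of glutathione synthesis, rose 1.96-fold (edgeR adjusted p = 0.00094), a call lost in the fit of all 24 libraries (edgeR adjusted p = 0.0986). Amino acid transporters had 3 of 26 genes higher and 10 lower. Slc6a9, a glycine transporter, rose 2.97-fold, Slc38a3, a glutamine transporter, fell 2.26-fold, and Slc43a1, a transporter of branched amino acids, fell 5.19-fold (edgeR adjusted p = 3.9e-05, 2.13e-05 and 2.22e-05).

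**Figure D3:**
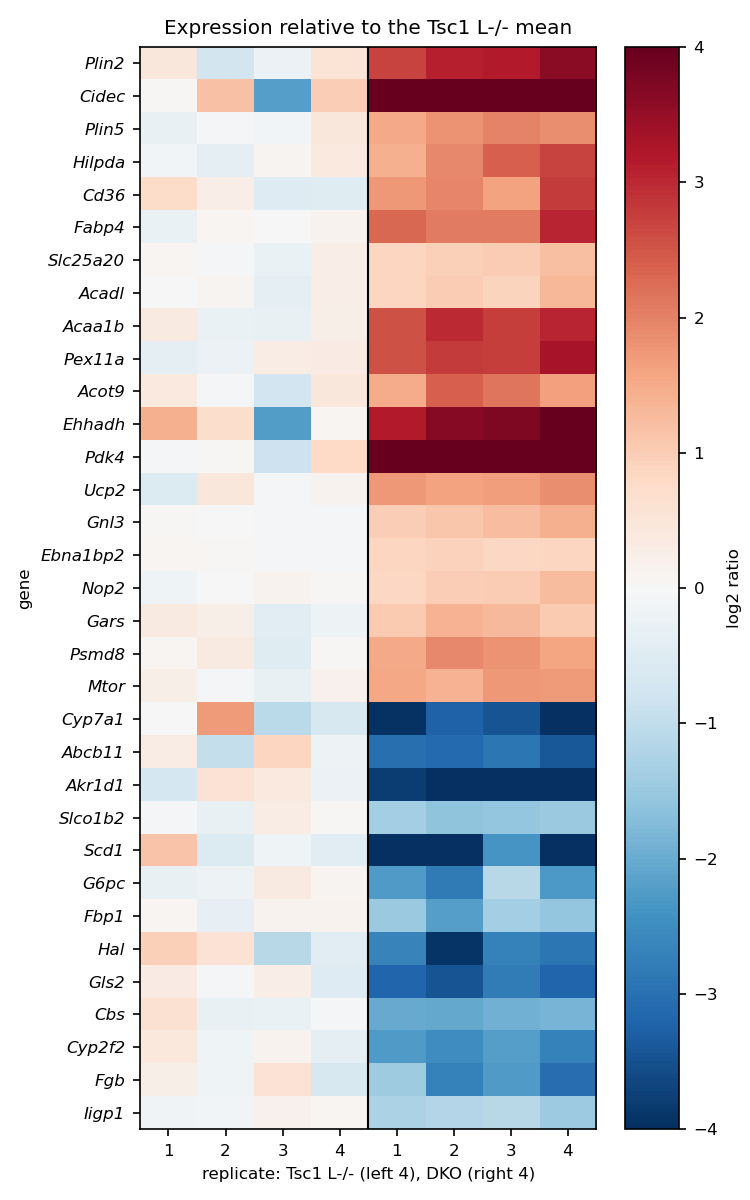
Log2 ratio of each library to the mean of the 4 Tsc1 L-/- libraries, on log2(CPM + 0.5), for 33 genes named in the text and grouped by function. Columns are the 4 Tsc1 L-/- and the 4 DKO libraries, red is above and blue below the Tsc1 L-/- mean, and the color scale ends at 4 on either side. The genes were picked after their values were seen, as examples called higher or lower, so the single color of each gene in the 4 DKO columns follows from that choice. Members of the same lists called in the other direction, such as Lipe and Echs1, are not shown.

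Targets of Atf4, the transcription factor of the integrated stress response, had 13 of 31 genes higher and 1 lower (median log2 fold change 1.03), 8 higher when all 24 libraries were fitted and 2 lower without Tsc1 L-/- replicate 1. Mthfd2, of mitochondrial folate metabolism, was at 2.58, 1.66, 1.03 and 1.33 CPM in Tsc1 L-/- and at 14.6, 23.3, 23.1 and 13.9 CPM in DKO libraries (11.3-fold, edgeR adjusted p = 3.78e-06). Atf4 itself rose 1.58-fold (edgeR adjusted p = 0.00525), a call lost in the fit of all 24 libraries (edgeR adjusted p = 0.062). Not all members followed. Asns, the asparagine synthetase, was at 59.5, 109, 8.76 and 27.6 CPM and at 25.9, 20.5, 35.4 and 20 CPM, inside the Tsc1 L-/- range (log2 fold change -1.01, SE 0.63, edgeR adjusted p = 0.245). Of 30 ER chaperone and quality control genes of the unfolded protein response, 15 were lower and 1 higher, and 7 were lower in the fit of all 24 libraries. Ero1lb, an ER oxidase, fell 2.48-fold and Edem1, which sends misfolded glycoproteins to degradation, 1.88-fold (edgeR adjusted p = 1.89e-05 and 8.35e-05). Hspa5, the chaperone BiP, had 1 high Tsc1 L-/- library (1103, 586, 617 and 555 CPM against 666, 658, 620 and 561 CPM) and no call (edgeR adjusted p = 0.544). Eif2ak3, the ER stress kinase Perk, was the member that rose (1.58-fold, edgeR adjusted p = 0.00554), and 2 rose without Tsc1 L-/- replicate 1.

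Most genes that build ribosomes rose. Of 55 ribosome biogenesis genes, 44 were higher and none was lower, and the median log2 fold change was 0.61. Gnl3, a nucleolar GTPase, was at 26.1, 25.4, 24.6 and 24.6 CPM in Tsc1 L-/- and at 50.5, 55.2, 60.4 and 68.9 CPM in DKO libraries. Ebna1bp2, of the large subunit pathway, was at 23.9, 23.2, 21.8 and 21.4 CPM in Tsc1 L-/- and at 41.3, 43.0, 40.6 and 41.4 CPM in DKO libraries. The libraries within each group were within a few CPM in Ebna1bp2. The folds were 2.33 for Gnl3, 1.84 for Ebna1bp2 and 2.07 for Nop2, an rRNA methyltransferase (edgeR adjusted p = 5.31e-06, 4.78e-06 and 1.39e-05). Aminoacyl-tRNA synthetases had 20 of 39 higher and none lower, with Gars at 2.25-fold and Sars at 2.14-fold.

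Cytosolic ribosomal protein genes had 56 of 79 higher and none lower (median log2 fold change 0.49), but this count depended on the libraries in the fit. It was 30 without DKO replicate 2, 46 without Tsc1 L-/- replicate 3 and 7 when all 24 libraries were fitted. Rpl12 was at 107, 126, 136 and 108 CPM in Tsc1 L-/- and at 271, 343, 243 and 289 CPM in DKO libraries (2.40-fold, edgeR adjusted p = 5.15e-05). Proteasome subunits had 29 of 41 higher and 2 lower, 19 higher without Tsc1 L-/- replicate 3 and 12 in the fit of all 24 libraries. Psmd8, of the regulatory particle, was at 151, 183, 102 and 146 CPM in Tsc1 L-/- and at 411, 544, 490 and 425 CPM in DKO libraries (3.22-fold, edgeR adjusted p = 3.43e-06). Psmd4, a ubiquitin receptor, rose 2.31-fold (edgeR adjusted p = 3.48e-05). The 2 lower members were Psmb8 and Psmb10, both catalytic subunits of the immunoproteasome, the form induced by interferon. Psmb8 fell 1.88-fold (edgeR adjusted p = 0.00172), and Psmb10 lost its call without Tsc1 L-/- replicate 3 (edgeR adjusted p = 0.0848), DKO replicate 3 or DKO replicate 4.

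The subunits of the respiratory chain had few calls, with 3 of 82 nuclear genes higher and 5 lower and no call among the 13 mitochondrial genes. The nuclear shares were 3.66% and 6.10%, beside 16.9% and 15.2% over all genes. Without single libraries 1 to 4 nuclear genes were higher and 1 to 7 lower (1 lower without DKO replicate 4, and 2 without Tsc1 L-/- replicate 2, DKO replicate 1 or DKO replicate 3), and 1 was higher and 1 lower in the fit of all 24 libraries. The medians were -0.042 and 0.14. At an unadjusted p under 0.05 there was 1 gene among the mitochondrial ones, and limma on log2(FPKM + 1) called 2 and DESeq2 none. Without DKO replicate 2, 1 mitochondrial gene was called higher. Cycs, cytochrome c, rose 1.67-fold and Atp5sl, a factor for complex I assembly despite its name, fell 2.74-fold (edgeR adjusted p = 8.61e-05 and 9.58e-06). mt-Co1 was at 16440 to 25700 CPM in Tsc1 L-/- and at 18070 to 25160 CPM in DKO libraries. Mitochondrial carriers and uncoupling proteins had 9 of 26 higher and 6 lower (34.6% and 23.1%, beside 16.9% and 15.2% over all genes), and 3 lower without DKO replicate 2. Ucp2, among those higher, rose 3.20-fold from 50 to 100 CPM up to 224 to 267 CPM (edgeR adjusted p = 3.9e-06).

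Among transcripts of the mTORC1 pathway 11 of 36 were higher and 4 lower (30.6% and 11.1%, beside 16.9% and 15.2% over all genes), and 5 were higher without DKO replicate 2 and 7 without DKO replicate 3. Mtor, the kinase itself, was at 83.3, 66.2, 57.1 and 78.8 CPM in Tsc1 L-/- and at 206, 187, 236 and 231 CPM in DKO libraries (3.02-fold, edgeR adjusted p = 1.38e-06). Rheb, the GTPase that turns it on, was at 43.1 to 47.3 CPM and at 66.7 to 72.1 CPM (1.53-fold, edgeR adjusted p = 0.000112). Deptor, an inhibitor bound to the kinase, fell 1.57-fold (edgeR adjusted p = 0.000757). All 3 genes were picked for a small adjusted p, and they were without overlap between the groups, as were 30.6% of all genes tested. In the lysosome and autophagy list 13 of 55 were higher and 10 lower (23.6% and 18.2%, beside 16.9% and 15.2% over all genes), and 8 were higher without DKO replicate 2. Atp6v1c1, a subunit of the proton pump, rose 1.81-fold, and the autophagy genes Ulk1 and Gabarapl1 fell 1.84-fold and 1.78-fold (edgeR adjusted p = 5.39e-06, 0.000154 and 4.99e-05). Of 24 insulin signaling genes 2 were higher (1 without Tsc1 L-/- replicate 3) and 9 lower, including Insr, the insulin receptor (162 to 206 CPM against 82.5 to 120 CPM, 1.74-fold lower, edgeR adjusted p = 0.000272). The growth hormone axis had 13 of 31 genes lower and 1 higher (2 without Tsc1 L-/- replicate 2), with Igf1 down 1.83-fold, Igfals, its carrier, down 2.25-fold and Stat5b down 1.40-fold (edgeR adjusted p = 0.00118, 0.000383 and 0.00319).

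Many cytochromes P450 that clear foreign compounds fell. Among Cyp1, Cyp2 and Cyp3 cytochromes P450, 24 of 38 were lower and none higher (median log2 fold change -1.06), while 1 was called higher in the fit of all 24 libraries, with the replicate block, by DESeq2 and by limma on FPKM. Cyp2f2, a periportal P450, was at 1086, 713, 878 and 613 CPM in Tsc1 L-/- and at 168, 144, 173 and 123 CPM in DKO libraries (5.41-fold lower, edgeR adjusted p = 1.89e-07). Cyp2c29 had 1 high library (199, 246, 1481 and 261 CPM against 57.8, 101, 76.5 and 73.9 CPM). Its log2 fold change was -2.82 with Tsc1 L-/- replicate 3 and -1.61 without it, and it was lower in both (edgeR adjusted p = 0.00231 and 5.42e-05). Near-identical Cyp2c genes may share reads. Of 25 conjugating enzymes, 11 were lower and 1 higher (none higher without DKO replicate 4 or in the fit of all 24 libraries), with Ugt2a3 down 3.22-fold, Papss2, which makes the sulfate donor, down 2.62-fold and Sult1a1 down 5.01-fold (edgeR adjusted p = 1.13e-06, 5.67e-06 and 6.97e-05). Antioxidant genes and glutathione transferases, many of them targets of the factor Nrf2, were 17 of 46 higher and 7 lower, and 11 higher in the fit of all 24 libraries. The shares were 37.0% and 15.2%, beside 16.9% and 15.2% over all genes, so falls were no more frequent than over all genes. Cbr3, a carbonyl reductase, rose 12-fold from 0.451 to 1.11 CPM up to 4.78 to 16.9 CPM, Txnrd1, the thioredoxin reductase, 2.04-fold and Gstm4 2.33-fold (edgeR adjusted p = 1.41e-05, 8.96e-06 and 3.78e-06), and Gstt3 fell 7.32-fold (edgeR adjusted p = 6.37e-06).

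**Figure D4:**
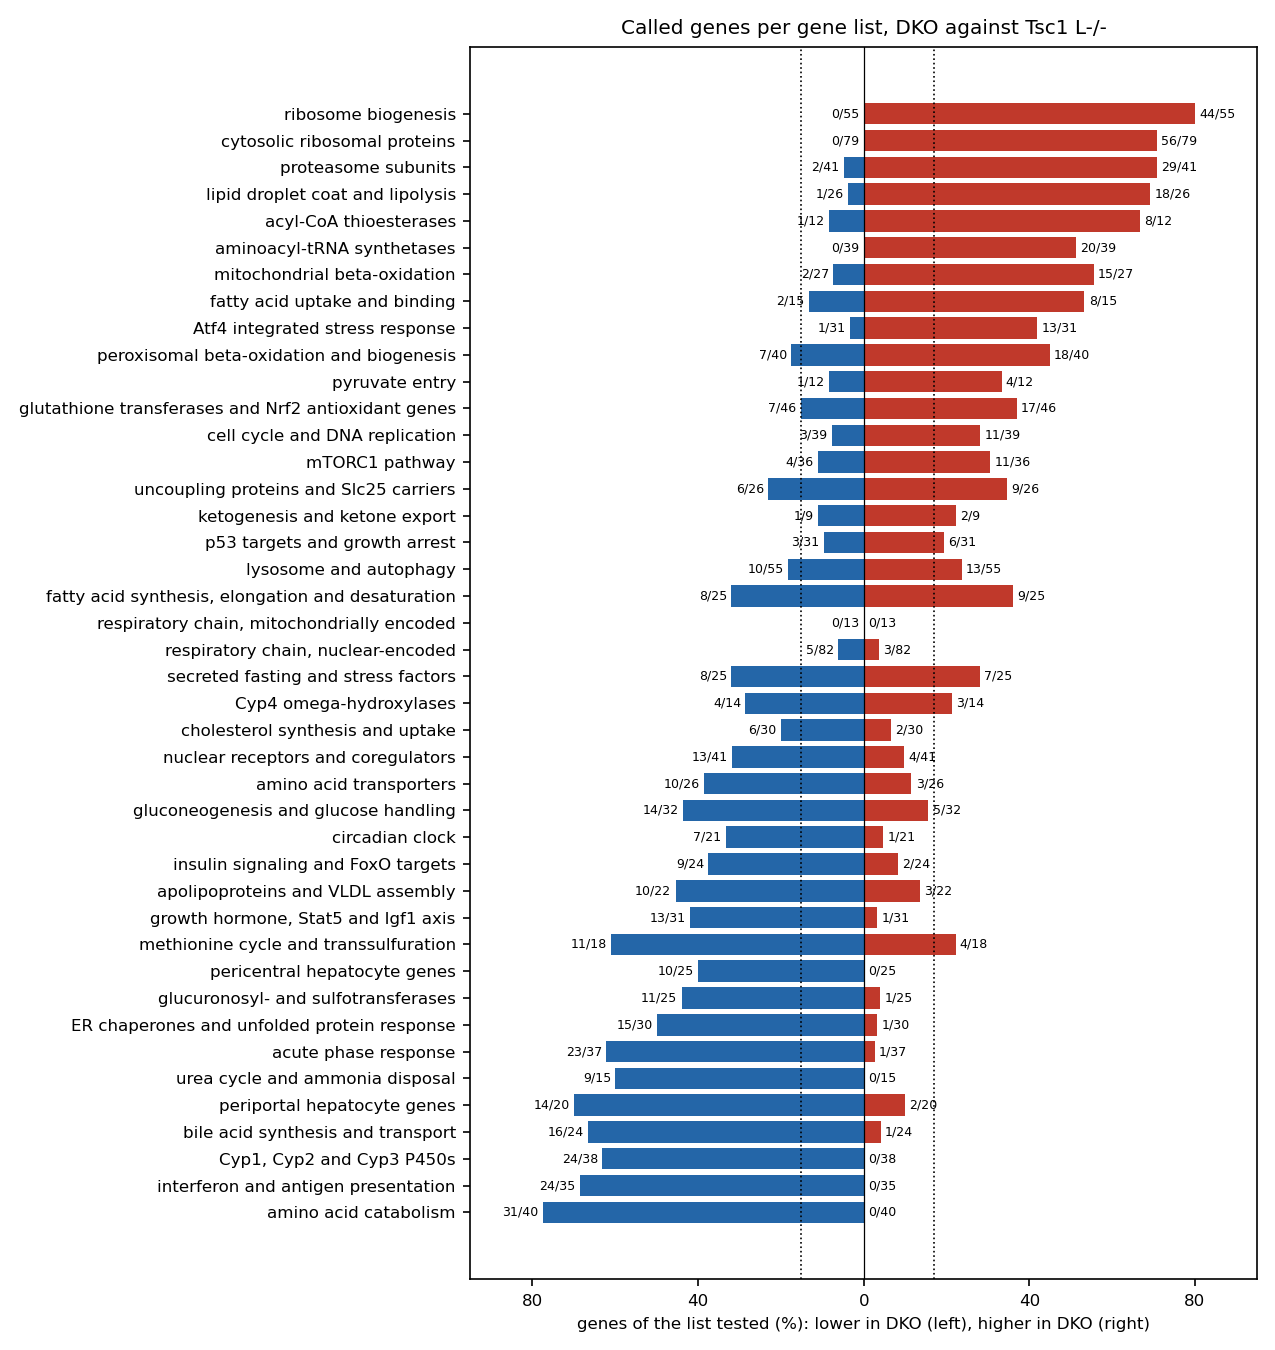
Share of each gene list that was higher (red, to the right) or lower (blue, to the left) in DKO than in Tsc1 L-/- livers, in percent of the genes tested in the list, with the counts beside each bar. Dotted lines mark the shares over all genes, 16.9% higher and 15.2% lower. Ribosome biogenesis is at 44 of 55 higher and amino acid catabolism at 31 of 40 lower.

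Plasma proteins of the acute phase response were 23 of 37 lower and 1 higher (median log2 fold change -1.30). Fgb, the fibrinogen beta chain, was at 2369, 1768, 3022 and 1276 CPM in Tsc1 L-/- and at 742, 305, 416 and 243 CPM in DKO libraries (4.94-fold lower, edgeR adjusted p = 4.84e-05). Saa4, a constitutive serum amyloid, was at 86.6, 137, 592 and 130 CPM and at 15.7, 14.8, 16.3 and 10.8 CPM, with log2 fold changes of -4.04 with and -3.04 without Tsc1 L-/- replicate 3 (edgeR adjusted p = 0.000101 and 1.14e-07). The inducible and nearly identical Saa1 and Saa2 were not called by edgeR (adjusted p = 0.103 and 0.113) and were called lower by DESeq2 (adjusted p = 0.0116 and 0.0127), while 1 Tsc1 L-/- library was at 975 and 711 CPM and the other 3 between 22.7 and 179 CPM and between 9.99 and 56.0 CPM. Interferon-induced and antigen presentation genes were 24 of 35 lower, none higher, and 17 lower without Tsc1 L-/- replicate 3. Iigp1, an interferon-induced GTPase, was at 208, 215, 257 and 246 CPM in Tsc1 L-/- and at 96.4, 102, 106 and 83.2 CPM in DKO libraries (2.39-fold lower, edgeR adjusted p = 2.33e-06). Ifit3 fell 4.52-fold and Mx2 5.57-fold (edgeR adjusted p = 5.15e-05 and 3.9e-05). Among 25 secreted factors of fasting and stress, 7 were higher and 8 lower (28.0% and 32.0%, beside 16.9% and 15.2% over all genes), and 2 higher in the fit of all 24 libraries. Fgf21, the fasting hormone, was at 34.8, 8.64, 1.29 and 24.4 CPM and at 55.4, 119, 62.5 and 138 CPM (5.41-fold, edgeR adjusted p = 0.0147). This call was lost in the fit of all 24 libraries and in that of only the 8 libraries (edgeR adjusted p = 0.0941 and 0.0822). Inhbb, an activin subunit, rose 3.76-fold, and Fst, the protein that binds activins, fell 3.92-fold (edgeR adjusted p = 0.00197 and 7.7e-05).

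Of 41 nuclear receptors and coregulators 4 were higher and 13 lower (9.76% and 31.7%, beside 16.9% and 15.2% over all genes). Ppara was at 200, 140, 256 and 196 CPM in Tsc1 L-/- and at 275, 172, 271 and 261 CPM in DKO libraries, which overlap (log2 fold change 0.31, SE 0.18, edgeR adjusted p = 0.201). Pparg, the adipocyte form, was at 5.89 to 10.8 CPM and at 20.6 to 27.2 CPM (2.99-fold, edgeR adjusted p = 2.98e-05). Nr1i2, the xenobiotic receptor PXR, rose 1.66-fold, and Nr3c1, the glucocorticoid receptor, fell 1.78-fold (edgeR adjusted p = 0.000822 and 0.00124). Clock genes had 7 of 21 lower and 1 higher, and 2 lower without Tsc1 L-/- replicate 3 or DKO replicate 2, 4 without DKO replicate 3 and 3 without DKO replicate 4 or in the fit of all 24 libraries. The count higher was 2 without Tsc1 L-/- replicate 3 and 0 without DKO replicate 4 or in the fit of all 24 libraries. Tef, an output factor of the clock, fell 1.56-fold (edgeR adjusted p = 0.00271). Both zones of the liver lobule were affected, with 14 of 20 periportal genes lower and 2 higher (median log2 fold change -1.40) and 10 of 25 pericentral genes lower and none higher (-0.52). Cdh1, the periportal cadherin, fell 4.47-fold and Gulo, a pericentral enzyme of ascorbate synthesis, 2.85-fold (edgeR adjusted p = 8.79e-06 and 3.3e-05). Cell cycle genes were 11 of 39 higher and 3 lower (28.2% and 7.69%, beside 16.9% and 15.2% over all genes). The count higher was 5 without DKO replicate 1, 6 without Tsc1 L-/- replicate 1, 2 or 4 and 7 without DKO replicate 3. Mcm2, of the replication helicase, rose 3.80-fold, from 3.74 to 4.29 CPM up to 10.6 to 18.4 CPM, and Tk1, the thymidine kinase, fell 5.93-fold (edgeR adjusted p = 0.000211 and 4.64e-06). The p53 list had 6 of 31 higher and 3 lower (19.4% and 9.68%, beside 16.9% and 15.2% over all genes), and none lower in the fit of all 24 libraries.

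Markers of the cells of the liver were compared because whole tissue was sequenced. Of 12 hepatocyte markers, 7 were lower and none higher (median log2 fold change -1.09), and their summed level was 59270 to 89820 CPM in Tsc1 L-/- and 37560 to 46890 CPM in DKO libraries. Alb fell 2.37-fold, from 43930, 35220, 20200 and 22590 CPM to 11900, 13280, 15190 and 11110 CPM (edgeR adjusted p = 0.00137). Kupffer cell and macrophage markers had 12 of 16 lower and 1 higher, with a summed level of 512 to 838 CPM in Tsc1 L-/- and 318 to 487 CPM in DKO libraries. Clec4f, specific to Kupffer cells, was at 96.6, 73.1, 133 and 82.9 CPM in Tsc1 L-/- and at 59.1, 39.1, 46.2 and 41.1 CPM in DKO libraries (2.08-fold lower, edgeR adjusted p = 0.000455), and Emr1, which codes for F4/80, fell 2.40-fold (edgeR adjusted p = 0.0111). The exception was Cd68, a lysosomal protein used as a macrophage marker, which was at 8.83, 8.92, 9.86 and 9.24 CPM in Tsc1 L-/- and at 102, 126, 115 and 35.1 CPM in DKO libraries (10.3-fold, edgeR adjusted p = 7.8e-06). Markers of lipid-associated macrophages had 4 of 11 higher and 1 lower, none lower without any 1 of 6 libraries, Tsc1 L-/- replicates 1, 2 and 3 and DKO replicates 1, 3 and 4, and their summed level was 63.0 to 68.3 CPM in Tsc1 L-/- and 235 to 426 CPM in DKO libraries. Beside Gpnmb, these were Cd63 (11-fold), Lgals3 (6.91-fold) and Cd9 (2.34-fold), with edgeR adjusted p = 7.3e-05, 0.00019 and 0.00181. Trem2, which defines this cell state, was at 0.736 to 1.03 CPM and at 0.396 to 1.0 CPM without a call (edgeR adjusted p = 0.485). The source of the lysosomal transcripts was not tested.

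Endothelial markers had 3 of 14 lower (21.4%, beside 15.2% over all genes) and none higher, and this count was 1 without DKO replicate 2, Tsc1 L-/- replicate 3 or Tsc1 L-/- replicate 4, 6 without Tsc1 L-/- replicate 2, 7 without Cpt2 L-/- replicate 2 and 0 with limma on log2(FPKM + 1). Stellate cell markers had 4 of 15 lower (26.7%) and none higher, with 2 lower without DKO replicate 3 and 1 in the fit of all 24 libraries. Col3a1, a fibrillar collagen, fell 1.86-fold, from 18.1, 17.9, 20.8 and 16.6 CPM to 11.8, 11.2, 7.47 and 8.90 CPM (edgeR adjusted p = 0.0196, and 0.0521 without Tsc1 L-/- replicate 3). Dcn, the proteoglycan decorin, was at 84.7 to 132 CPM and 98.5 to 117 CPM (edgeR adjusted p = 0.718). Neutrophil, T and NK cell and B cell markers were at summed levels of at most 11.3 CPM in any of the 8 libraries, and none of the 16 that were tested was called by edgeR, or by limma on FPKM and DESeq2, while 1 B and plasma cell marker was called lower when only the 8 libraries were fitted. At an unadjusted p under 0.05 there were 3, and leaving out single libraries called at most 1 in each list. Erythroid markers ranged from 144 to 465 CPM in Tsc1 L-/- and from 125 to 849 CPM in DKO libraries in sum, without a call among 7 tested by edgeR, limma or DESeq2, and with 0 at an unadjusted p under 0.05. Among 10 adipocyte markers 3 were tested, Fabp4 and Pparg, which are given above, and Car3, at 1979 CPM in Tsc1 L-/- replicate 3 and 59.7 to 110 CPM in the other 3. Car3 was called lower with that library (edgeR adjusted p = 0.0153) and not without it (edgeR adjusted p = 0.0857).

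To ask whether Cpt2 loss acts differently when Tsc1 is absent, the change from Tsc1 L-/- to DKO was set against the change from control to Cpt2 L-/- livers, which shares no library with it. The difference of the 2 log2 fold changes passed the interaction test in 324 genes (2.38%), 149 above 0 (1.09%) and 175 below (1.28%), and 2577 genes were at an unadjusted p under 0.05. Of the 324, 211 were also called between DKO and Tsc1 L-/- livers, where 32.2% of all genes were called. In 93 of these the rise was larger, or the only one, without Tsc1, and in 103 the fall was. Another 9 rose with a difference below 0, and 6 fell with a difference above 0. The difference contains the change from Tsc1 L-/- to DKO, so this overlap and the shared direction are partly built in. The count of 324 was 150 without DKO replicate 2, 199 and 211 without Cpt2 L-/- replicates 4 and 3, 206 and 207 without control replicates 4 and 2, 403 without Tsc1 L-/- replicate 3 and 65 in the fit of all 24 libraries. Mogat1, an enzyme of triglyceride synthesis, was at 0.368, 0.415, 0.129 and 0.253 CPM in Tsc1 L-/- and at 2.31, 4.39, 1.59 and 2.60 CPM in DKO libraries (log2 fold change 3.20), while control livers had 1.62 ± 0.70 CPM and Cpt2 L-/- livers 1.21 ± 0.55 CPM (mean ± SD, n = 4) (log2 fold change -0.43). The difference was 3.63 (SE 0.64, edgeR adjusted p = 0.0065).

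Among the genes with the larger rise without Tsc1 were Pex11a and Acaa1b of the peroxisomal list. Both had been named for a small adjusted p between DKO and Tsc1 L-/-, and the members of that list with an interaction were not counted. Pex11a rose by 2.85 on the log2 scale between Tsc1 L-/- and DKO livers and by 1.61 between control and Cpt2 L-/- livers (difference 1.24, edgeR adjusted p = 0.017). Acaa1b rose by 2.81 and 1.24 (difference 1.57, edgeR adjusted p = 0.00896). For both, the Tsc1 L-/- mean was below the control mean (78.1 against 204 CPM for Pex11a and 844 against 2680 CPM for Acaa1b), and the DKO mean was close to that of Cpt2 L-/- livers (562 against 623 CPM and 5930 against 6320 CPM). Gstm4 differed by 1.25, Cdk5rap1, a mitochondrial tRNA-modifying enzyme, by 2.27 and Rcan2, an inhibitor of calcineurin, by 2.22 (edgeR adjusted p = 0.00162, 0.0103 and 0.00685). Among the falls, Fst fell by 1.97 in the Tsc1-deficient liver and was 1.63 higher in Cpt2 L-/- than in control livers (difference -3.60, SE 0.42, edgeR adjusted p = 0.000208), and the glutaminase Gls2 differed by -2.41 (edgeR adjusted p = 0.00323). Cyp17a1 differed by -6.50, Neurl1a, a ubiquitin ligase, by -3.75, Slc13a2, a citrate carrier, by -3.19 and Cdh1 by -2.65 (edgeR adjusted p = 0.0265, 0.00474, 0.0237 and 0.000867). The large rises in Fabp3, Ucp3, Pdk4, Plin2 and Cidec were not among the 324 (edgeR adjusted p = 0.955, 0.704, 0.274, 0.57 and 0.78). Their interaction was estimated as 1.13 (SE 6.76), 1.20 (SE 1.41), 1.32 (SE 0.62), 0.41 (SE 0.35) and 0.48 (SE 0.72). A missed call does not show that the rises were equal. For Fabp3 and Ucp3 the test cannot decide this, because both baselines were nearly empty. No control library held over 1 read of Fabp3 or 2 of Ucp3, and no Tsc1 L-/- library over 5 and 1. Fabp3 reached 64.0 ± 46.1 CPM in DKO but 6.29 ± 1.75 CPM in Cpt2 L-/- livers (mean ± SD). Ucp3 reached 6.82 ± 1.82 and 4.71 ± 1.14 CPM.

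**Figure D5:**
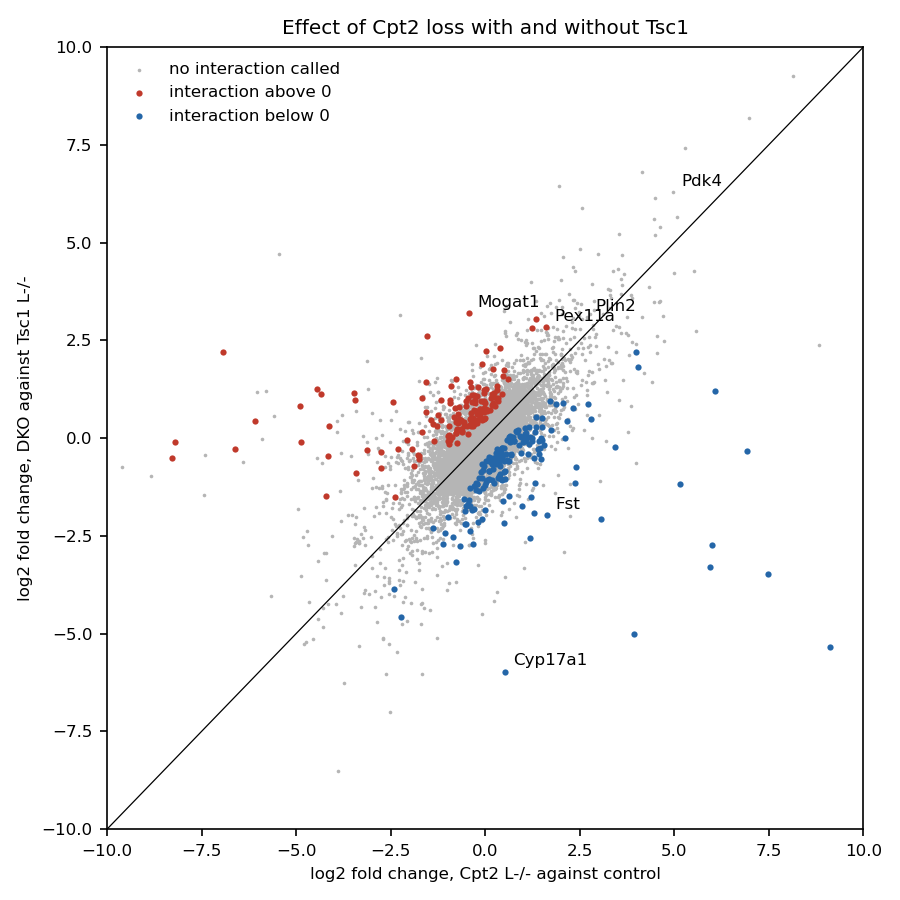
Effect of Cpt2 loss in Tsc1-deficient liver (y axis, log2 fold change of DKO against Tsc1 L-/-) and in Tsc1-replete liver (x axis, log2 fold change of Cpt2 L-/- against control) for the 13641 genes tested. Colored points are the 324 genes with an interaction, red for 149 above 0 and blue for 175 below 0, and the line marks equal effects. Mogat1 lies 3.63 above the line and Fst 3.60 below it, while Plin2 is 0.41 from it.

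Engineered alleles carry flanking DNA of their strain of origin, so the neighborhoods of the 2 loci were described. Within 5 Mb of Cpt2 on chromosome 4, 55 genes were tested and 13 were higher and 9 lower (40%). Within 5 Mb of Tsc1 on chromosome 2, 168 were tested and 32 were higher and 22 lower (32.1%, beside 32.2% over all genes).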

How the data were processed

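Liver RNA of 24 libraries was deposited as a table of counts per gene and a table of FPKM, which the authors made from poly(A) libraries (stranded kit, single 75-base reads). The deposited counts are raw reads per gene, and the deposited FPKM are these counts divided by gene length and library total, which recomputation matched to within 9.11e-07. The submitters' processing notes name TopHat, Bowtie 0.12.2, STAR 2.5, STAR-Fusion, HTSeq 0.6.1, DESeq2 and edgeR and the builds mm8 and mm9, with no role or order. The gene coordinates, however, had both ends within 1000 bases of GENCODE vM21 on GRCm38 for 89.7% of 13574 genes. The strand setting of the counting is not given in the sources used here, so overlapping and antisense genes, and near-identical copies, are uncertain.

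Counts of the 16 control, Tsc1 L-/-, Cpt2 L-/- and DKO libraries were filtered with filterByExpr (minimum count 10), scaled by TMM and fitted with edgeR 4.0.16 in R 4.3.3 (glmQLFit and glmQLFTest), with Benjamini-Hochberg adjustment over all 13641 genes and a threshold of 0.05. Folds and log2 fold changes are from this fit, and SE is the log2 fold change divided by the square root of its F statistic. The floor for bounds was 3 counts per library. DESeq2 1.42.0, limma 3.58.1 on log2(FPKM + 1), other scalings, other sets of libraries and omission of each library were the alternatives. No 2 libraries of the same group, among these 4 groups, agreed within counting noise. On simulated counts for 13480 genes, edgeR recovered 75% of genes changed by 1 and 100% of those changed by 2 on the log2 scale, with 7 false among 182 calls. The simulation gave all genes and groups the same dispersion and changed 100 well-counted genes at each size. The real data had many more called genes and a wider spread in Tsc1 L-/-, so these rates check the code and do not carry over to this comparison.

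The genes and lists were chosen with earlier results of these data known. The rule named Tsc1 and Cpt2, the 12 largest rises and falls, up to 4 members per list and direction by adjusted p, the 5 largest interactions in each direction and the leading cell type markers, 300 genes in all. Of these, 149 are described, and 17 genes outside the rule were chosen after their values were seen (Cidec, Ehhadh, Acot2, Cyp4a14, Cpt1a, Cpt1b, Fgf21, Ppara, Srebf1, Atf4, Hspa5, Trem2, Hal, Asns, Cd36, Saa1 and Saa2). Some members of the lists are not reported here. Promoter sequences are from RefSeq on GRCm38.p6. Figures were drawn with matplotlib 3.10.9.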

Additional observations from a re-analysis of the deposited data

Results flagged for a closer look

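In each group of 4 libraries, the highest or lowest library was compared with its nearest neighbor relative to the range of the group (Dixon's test). Chance marks about 1 in 20 groups, and the 166 genes described gave 2 groups each. DKO replicate 1 stood apart on the high side in Akr1d1 (8.73 CPM), Elovl6 (26.4 CPM), Papss2 (93.6 CPM) and Dcn (117 CPM). DKO replicate 2 stood apart on the low side in Ppara (172 CPM). DKO replicate 3 stood apart on the high side in Saa1 (41.9 CPM). DKO replicate 4 stood apart on the high side in Aqp3 (7.11 CPM) and Fabp4 (66.9 CPM). DKO replicate 4 stood apart on the low side in Gulo (55.6 CPM). Tsc1 L-/- replicate 1 stood apart on the high side in Lpl (81.0 CPM), Scd1 (4054 CPM) and Hspa5 (1103 CPM). Tsc1 L-/- replicate 2 stood apart on the high side in Ppp1r3c (103 CPM), Saa1 (975 CPM) and Saa2 (711 CPM). On the low side, Tsc1 L-/- replicate 2 stood apart in Fbp1 (901 CPM). Tsc1 L-/- replicate 3 stood apart on the high side in Thrsp (565 CPM), Cyp2c70 (315 CPM), Cyp2c29 (1481 CPM), Saa4 (592 CPM), Car3 (1979 CPM) and Srebf1 (338 CPM). On the low side, replicate 3 of Tsc1 L-/- stood apart in Psmd4 (65.3 CPM). Replicate 4 of Tsc1 L-/- stood apart on the high side in Gstm4 (62.5 CPM). In Derl3 (0.108 CPM in DKO replicate 4), Rbm24 and Sprr1a (0.0691 and 0.138 CPM in Tsc1 L-/- replicate 2) and Ucp3 (0.0633 CPM in Tsc1 L-/- replicate 4) the other 3 libraries of the group were at 0, so 1 or 2 reads are enough to meet the criterion and it says nothing about the library.

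The response to Cpt2 loss differed with the presence of Tsc1 by the interaction test (edgeR) in these genes of the text, given as the log2 fold change of DKO against Tsc1 L-/- minus that of Cpt2 L-/- against control. It was below 0 for Cyp17a1 (-6.50), Neurl1a (-3.75), Fst (-3.60), Slc13a2 (-3.19), Cdh1 (-2.65), Gls2 (-2.41), Slc43a1 (-1.97), Cyp2f2 (-1.38), Cbs (-1.03), Insr (-1.0), Slc38a3 (-0.97), Tsc1 (-0.87), Stat5b (-0.83), Ulk1 (-0.78) and Gabarapl1 (-0.77). It was above 0 for Mogat1 (3.63), Cdk5rap1 (2.27), Rcan2 (2.22), Acaa1b (1.57), Gstm4 (1.25), Pex11a (1.24) and Dlat (0.52). For Tsc1 itself the counts do not tell the floxed allele from the intact one.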

How the results depend on the processing

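Of the 154 called genes described, 136 kept their call and direction under every alternative run, 15 lost the call under at least 1, and no direction reversed. The other 3 kept it wherever an adjusted p was given: DESeq2 gave none for Cyp2c29 and Cyp2c70 (nor for Thrsp), and Derl3 was not tested with only the 8 libraries. Calls were lost for 10 genes with all 24 libraries (Atf4, Col3a1, Cpt2, Echs1, Fgf21, Gclc, Lipe, Mpc1, Pdk2 and Pdp1), for 4 with only the 8 libraries (Car3, Fgf21, Lpl and Thrsp), for Tsc1 with limma on log2(FPKM + 1), for Car3, Echs1, Lipe, Pdk2 and Psmb10 with limma on either FPKM scale and for Lipe without the filter. Leaving out single libraries ended the call of 5 (Car3, Col3a1, Echs1, Lipe and Psmb10).

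The fit of all 24 libraries called 1479 genes higher and 65 with an interaction. Adding a minimum change of 1 on the log2 scale left 681 higher, 862 lower and 188 with an interaction. The interaction count was 752 with DESeq2 and 195 with limma on log2(FPKM + 0.1). Without single libraries, 1972 to 2323 genes were higher, 1715 to 2108 lower and 150 to 403 had an interaction. With limma, 66.0% (FPKM + 1) and 65.8% (FPKM + 0.1) of calls were higher, against 52.6% with edgeR, and the median of all genes was 0.057 and 0.088. The replicate numbers do not pair the libraries: deviations of same-numbered Tsc1 L-/- and DKO libraries correlated at 0.033, 0.004, -0.105 and 0.141. With the replicate block, 2223 genes were higher, 1957 lower and 270 had an interaction, and no call among the genes described was lost. The FPKM were scaled by library total without TMM, and the TMM factors were 0.933 to 1.064 in Tsc1 L-/- and 1.019 to 1.094 in DKO libraries. The causes of the differences between these settings were not tested. Counts of a few reads limit genes near the floor, for which bounds are given.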
